A study of Mus musculus with 12 samples.

Results

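Motile cilia axoneme genes encode the beating machinery of cilia and flagella, and 73 of them were found among the 48709 gene identifiers counted in cells sorted from cultures of embryonic mouse hypothalamus. A gene was a member where its symbol began with Cfap, Dnah, Dnai, Dnaaf, Drc, Rsph, Tekt or Spef followed by a digit, or was Foxj1, Pifo, Mcidas or Catip. The members were 31 Cfap, 16 Dnah, 8 Rsph, 5 Tekt, 4 Dnaaf, 3 Drc and 2 Spef genes with the 4 single genes, and no gene carried a Dnai symbol in the annotation used. All but 1 are protein coding; Dnah2os is an antisense transcript over Dnah2.

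Each group held 3 libraries made from cells of C57BL/6 hypothalamus taken at embryonic day 18 and grown as neurospheres, which are floating cell clusters. The cells received virus at a multiplicity of infection (MOI) of 10, bFGF, a growth factor, followed at 10 ng/ml a day later, and the cells were dissociated and sorted after a week. The mCherry sort used an AAV whose reporter marks cells expressing Hcrt (the hypocretin neuropeptide), and gave mCherry positive and mCherry negative cells. The EGFP sort used lentivirus particles whose reporter marks cells expressing melanin-concentrating hormone, the product of Pmch, and gave EGFP positive and EGFP negative cells. Virus was added before the sort, so the negative cells also come from cultures that received it, and no untreated cells were compared. Libraries started from 0.8 ng of RNA in the mCherry sort and 2 ng in the EGFP sort, with 11 amplification cycles and 150 pg of cDNA in each.

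A motile cilium is built around the axoneme, a ring of microtubule doublets that surrounds a central pair. Dynein arms slide the doublets against each other, while the nexin-dynein regulatory complex and the radial spokes control the sliding, and proteins inside the doublets hold them together. In the brain, ependymal cells lining the ventricles carry many such cilia and move cerebrospinal fluid. Foxj1 is the transcription factor that switches on most of these genes, together with factors of the RFX family, and Mcidas acts before it in cells that make many cilia. Most neurons carry instead a single primary cilium, which lacks dynein arms, radial spokes and a central pair.

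Gene reads ranged from 16.3 to 32.9 M per library, so that 3 reads corresponded to between 0.0912 and 0.184 reads per M gene reads (CPM). Levels below are CPM scaled by the trimmed mean of M values (TMM) over all 12 libraries. Hcrt stood between 0 and 0.392 CPM in all libraries, with 21 reads over the mCherry positive and 11 over the mCherry negative libraries, so its own transcript did not separate the mCherry sort; mCherry positive is used below as the name of a label. Pmch stood at 17.2 to 19.1 CPM in the EGFP positive and 3.93 to 5.02 CPM in the EGFP negative libraries. The neuronal genes Tubb3, Snap25, Syt1 and Rbfox3, picked for this check after other values were seen, had reads in all 12 libraries. Tubb3 stood lower without overlap in the positive libraries of both sorts, at 111 to 324 against 345 to 664 CPM in the mCherry sort and 237 to 276 against 345 to 375 CPM in the EGFP sort. Snap25 and Rbfox3 were lower without overlap in the EGFP positive libraries and overlapped in the mCherry sort, and Syt1 overlapped in both. In the mCherry sort the mean was higher in the positive libraries for Snap25 (146 against 96.9 CPM) and Syt1 (114 against 84.4 CPM). The mean of Rbfox3 was lower there (21.2 against 25.5 CPM). The part of these neuronal genes in the members' differences was not tested. Replicates are named as separate samples, but nothing says whether they came from separate cultures. The p-values set the difference between groups against the spread between these libraries, which may be only technical spread.

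Taken as a sum, the members tied to motile cilia stood higher in the reporter-positive than in the reporter-negative libraries of both sorts. Summed over the 62 members with a role tied to motile cilia, the level was 846 to 874 CPM in the EGFP positive and 439 to 491 CPM in the EGFP negative libraries. The same sum was 588 to 857 CPM in the mCherry positive and 248 to 384 CPM in the mCherry negative libraries. Neither sort had overlapping groups, although mCherry positive replicate 1 and mCherry negative replicate 3 stood far from the other libraries of their groups. In cells measured in bulk, a change in the share of ciliated cells and a change in RNA per cell cannot be told apart. A further 6 members are also used outside motile cilia (Cfap20, Cfap36, Cfap97, Cfap298, Dnaaf2 and Dnaaf5). This grouping was made with earlier results of these data known, so the contrast of the 6 with the 62 is a description. Dnaaf2 and Dnaaf5 are dynein-arm assembly factors, as are Dnaaf1 and Dnaaf3 among the 62. The sum of the 6 was 337 to 416 CPM in EGFP positive against 294 to 319 CPM in EGFP negative libraries, which did not overlap. It was 316 to 352 CPM in mCherry positive against 336 to 394 CPM in mCherry negative libraries, which did.

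**Figure D1:**
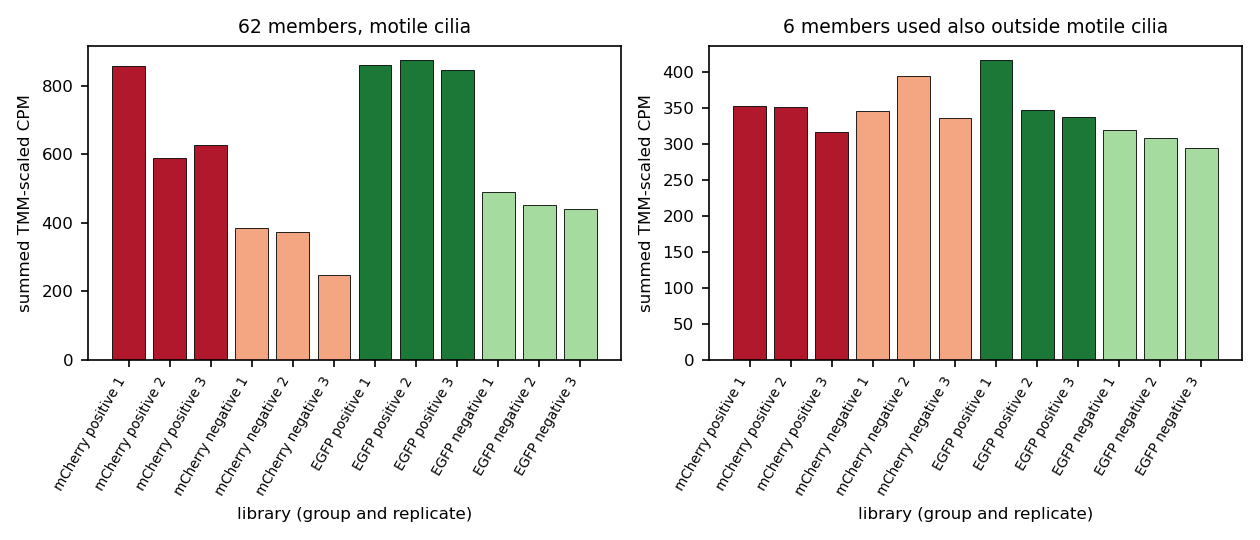
Summed TMM-scaled CPM (vertical axis) in each of the 12 libraries (horizontal axis), for the 62 members tied to motile cilia (left) and the 6 used also outside motile cilia (right); bars are single libraries. The left sums are 846 to 874 CPM in EGFP positive against 439 to 491 in EGFP negative libraries, and 588 to 857 in mCherry positive against 248 to 384 in mCherry negative libraries.

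In the EGFP sort, 34 of the 73 members rose in the positive cells and 0 fell (edgeR quasi-likelihood test, Benjamini-Hochberg adjusted p under 0.05 over all genes tested). Of all genes tested, 8.99% were called higher and 7.07% lower in this comparison. The filter on low counts passed 68 members, of which 66 had a log2 fold change above 0. Their median log2 fold change was 0.86 against -0.01 over all genes, and without the filter the median over the members was 0.87. The 3 positive libraries stood above the 3 negative ones, without overlap, for 50 of the 73 members and below them for 1, where 18.7% and 16.9% of all genes tested did so. All 34 that rose were among those 50, with log2 fold changes from 0.66 to 2.00. Leaving out EGFP negative replicate 2 or EGFP positive replicate 2 left 20 and 21 members called, and the fit in which all 12 libraries share 1 spread per gene called 8. Over all genes these fits called 1137, 1141 and 801, against 2622 in the main fit.

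In the mCherry sort, 4 members rose and 0 fell, where 0.541% of all genes tested were called higher and 0.656% lower. The 66 members that passed the filter had a median log2 fold change of 1.13 against 0.02 over all genes, and the median over the members was 1.15 without the filter. The positive libraries stood above the negative ones without overlap for 32 of the 73 members and below for 2 (Cfap20 and Dnaaf2, named after their values were seen), where 11.8% and 14.0% of all genes tested did so. An unadjusted p under 0.05 was found for 31 members, against 18.6% of all genes tested. The calls moved widely with the tool and the libraries fitted: DESeq2 called 23 members higher and 1 (Dnaaf2) lower, and the fit of all 12 libraries called 25 higher and 1 lower. Over all genes, DESeq2 called 948 of 18374 higher and 554 lower. The fit of all 12 libraries called 883 of 18063 genes higher and 829 lower. Without mCherry positive replicate 1, 2 members were called, and without any other library of this sort the count was 0, with 28 to 35 members at an unadjusted p under 0.05. Over all genes, 212 were called without mCherry positive replicate 1, against 208 with all libraries, so calls did not fall there. With any other library of this sort left out, calls over all genes fell to between 0 and 29. The spread between replicates, taken as 1 value for all genes of a fit, was wider here than in the EGFP sort. This common coefficient of variation was 0.382 against 0.189.

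**Figure D2:**
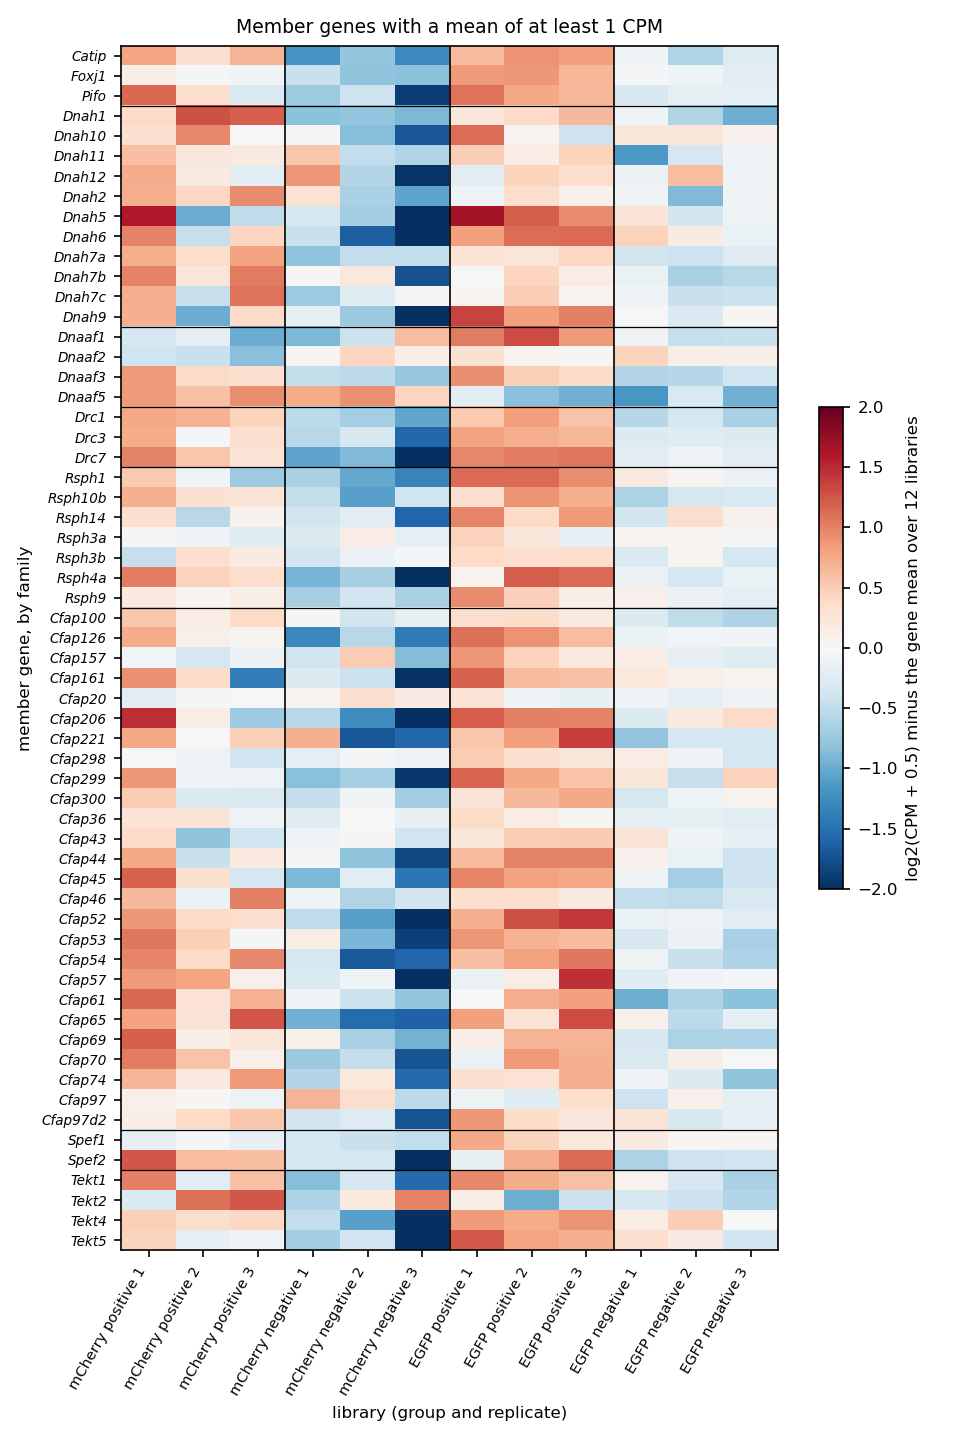
Heat map of the 60 members with a mean of at least 1 CPM (vertical axis, by family) in the 12 libraries (horizontal axis); colour is log2(CPM + 0.5) minus the gene's mean over the 12 libraries, from blue (lower) to red (higher). Most members are redder in the 3 EGFP positive than in the 3 EGFP negative libraries, mCherry negative replicate 3 is dark blue for many members, and Dnaaf5 is red in the mCherry sort and blue in the EGFP sort.

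Among the regulators, Foxj1 (chromosome 11, 116330704 to 116335399, minus strand, GRCm38) was read in every library. It stood at 54.0, 54.7 and 47.7 CPM in EGFP positive and 29.3, 28.2 and 25.6 CPM in EGFP negative replicates 1 to 3. The mCherry sort gave 32.4, 29.1 and 28.4 CPM in the positive and 21.7, 16.8 and 16.6 CPM in the negative replicates. Positive libraries lay above negative libraries in both sorts, and the mCherry positive libraries overlapped the EGFP negative ones. Foxj1 rose by 0.89 ± 0.13 (SE) on the log2 scale in the EGFP sort (edgeR adjusted p = 0.00283), while the mCherry difference was 0.72 ± 0.22 with an adjusted p of 0.134. Mcidas (chromosome 13, 112993845 to 113000394, plus strand) had 19 reads over the EGFP positive libraries, at 0.248, 0.239 and 0.316 CPM, and 0 reads over the EGFP negative libraries. With 3 reads as the floor of the EGFP negative group and the 19 reads taken as exact, it was 6.18-fold higher in the EGFP positive cells. This value has no test, since Mcidas did not pass the filter, and is not a lower limit. It had 3 reads in the mCherry positive libraries, all in replicate 1, and 0 in the mCherry negative ones.

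Pifo, which encodes a ciliary protein linked to cilium disassembly, stood at 26.1, 20.9 and 19.4 CPM in EGFP positive and 9.62, 10.5 and 10.6 CPM in EGFP negative libraries. It spanned 9.67 to 27.3 CPM in the positive and 2.90 to 8.97 CPM in the negative libraries of the mCherry sort, and the groups did not overlap in either sort. It rose in the EGFP sort (log2 fold change 1.09 ± 0.17, edgeR adjusted p = 0.00344), and the mCherry value was 1.47 ± 0.49 with an adjusted p of 0.156. Catip (chromosome 1, 74362108 to 74369321, plus strand), whose product acts on actin during ciliogenesis, rose in both. Its levels were 13.6, 9.75 and 12.5 CPM in mCherry positive against 3.08, 4.24 and 2.86 CPM in mCherry negative libraries. The EGFP libraries gave 12.1, 14.5 and 13.9 CPM against 7.23, 4.83 and 6.25 CPM. All positive libraries thus lay above all negative ones, with log2 fold changes of 1.82 ± 0.34 in the mCherry sort (edgeR adjusted p = 0.0423) and 1.13 ± 0.20 in the EGFP sort (0.00625).

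**Figure D3:**
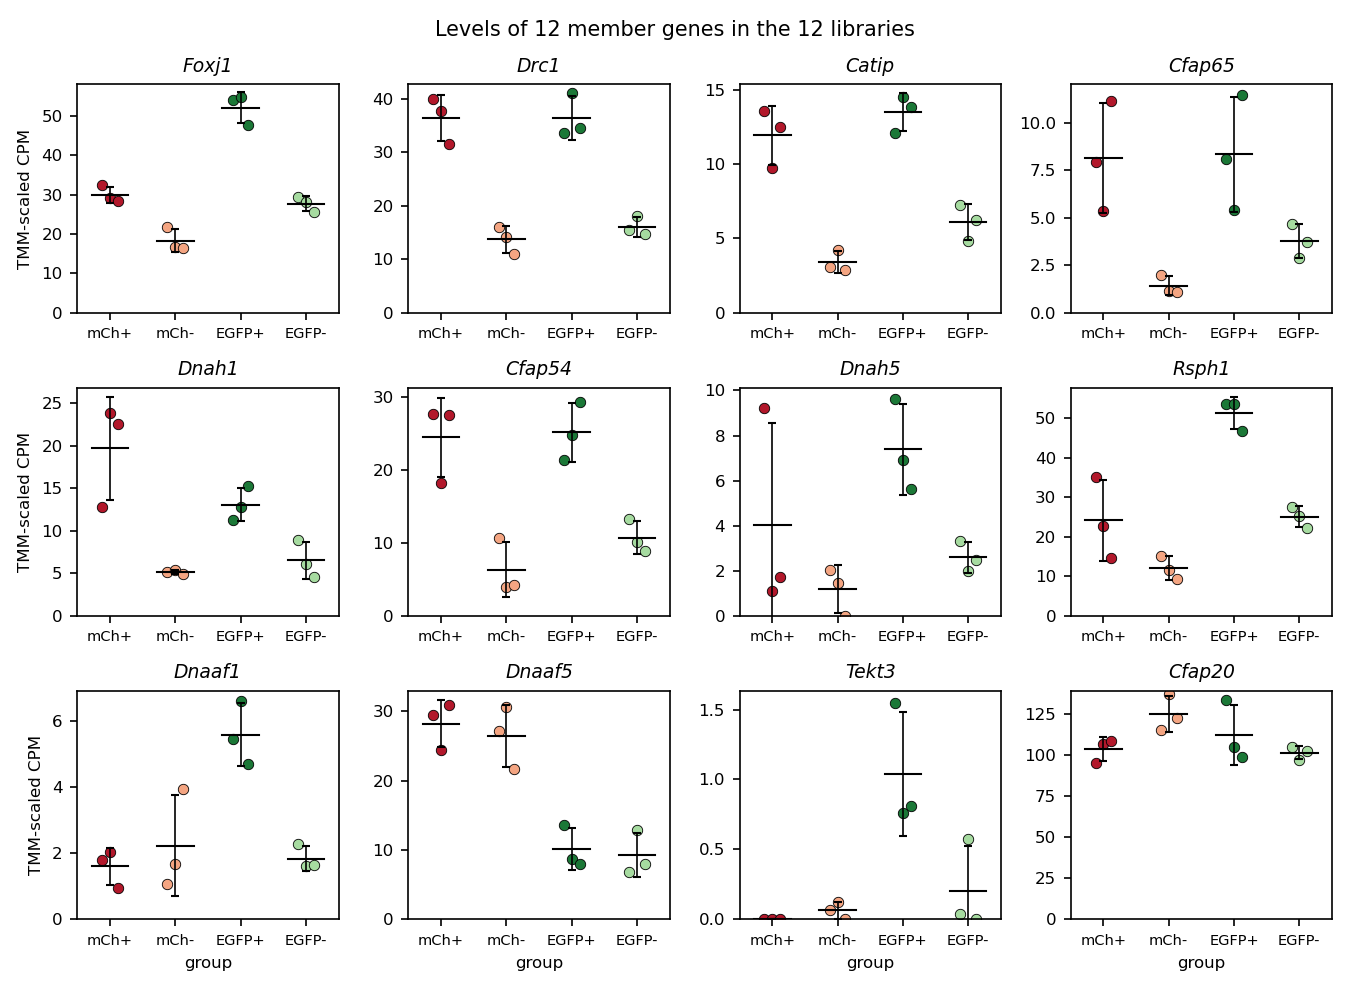
TMM-scaled CPM (vertical axes, each from 0) of 12 members in the 4 groups, where mCh+ and mCh- are the mCherry positive and negative and EGFP+ and EGFP- the EGFP positive and negative libraries; points are libraries, lines are means and bars are SD (n = 3, cut at 0). Foxj1, Drc1, Catip and Cfap65 show positive libraries above negative ones in both sorts, Dnaaf5 separates the sorts, and Cfap20 lies between 95.1 and 137 CPM throughout.

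The upstream bases of several members hold a paired motif of the kind that RFX factors bind. RefSeq start-site windows (GRCm38.p6, 250 bases before to 50 after the start) were matched to 59 members with 67 windows, of 32851 windows in all. A search on both strands for GTTNCC, 0 to 3 bases, then GNNAC found a match in 22 member windows, 32.8%, against 5.09% of all windows; a window with more than 1 match was counted 1 time. The single arm GTTGCC, which overlaps the longer pattern, was in 40.3% of member windows and 12.5% of all. With the stricter second arm GGNAAC the shares were 2.99% and 0.804%, and the forkhead-type TGTTTAC was in 5.97% and 3.65%. Median GC content was 54.7% in member windows and 52.7% in all. These patterns were settled after a first look at the windows, so the shares are a description.

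The stretches shown place such a match within 13 bases of the start in 7 members that rose in the EGFP sort. Each is printed 5′ to 3′ on the gene's strand, with the match in capitals, and in Cfap44, Cfap45 and Cfap46 the pattern reads on the opposite strand.
Catip, chr1:74362094-74362134, plus strand: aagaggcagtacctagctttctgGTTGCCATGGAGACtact
Cfap44, chr16:44394749-44394798, plus strand: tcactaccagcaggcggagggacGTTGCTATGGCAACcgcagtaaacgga
Cfap45, chr1:172521088-172521129, plus strand: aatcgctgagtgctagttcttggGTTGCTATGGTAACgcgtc
Cfap46, chr7:139683816-139683855, minus strand: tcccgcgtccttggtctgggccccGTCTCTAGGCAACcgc
Cfap206, chr4:34730207-34730252, minus strand: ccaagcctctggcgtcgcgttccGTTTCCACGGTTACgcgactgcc
Pifo, chr3:106001498-106001540, minus strand: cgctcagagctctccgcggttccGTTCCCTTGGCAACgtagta
Tekt1, chr11:72361883-72361920, minus strand: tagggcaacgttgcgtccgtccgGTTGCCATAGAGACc
Matches also stood near the start of members that were not called in the EGFP sort, of which 2 assembly factors are shown, on the opposite strand in Dnaaf2.
Dnaaf2, chr12:69198430-69198469, minus strand: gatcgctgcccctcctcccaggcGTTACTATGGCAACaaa
Dnaaf5, chr5:139150194-139150234, plus strand: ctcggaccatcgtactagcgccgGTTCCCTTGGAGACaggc
Among members with a window, the pattern was present in 11 of the 26 that rose in the EGFP sort and in 10 of the other 33.

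The 3 members of the nexin-dynein regulatory complex, the link between neighbouring doublets, all rose in the EGFP sort. Drc1 (chromosome 5, 30281388 to 30366695, plus strand), its scaffold, stood at 33.5, 41.1 and 34.4 CPM in EGFP positive and 15.4, 18.1 and 14.6 CPM in EGFP negative libraries. Its mCherry levels were 39.9, 37.6 and 31.5 CPM against 15.9, 14.2 and 10.9 CPM. Positive and negative groups lay apart in both sorts, and the positive groups of the sorts overlapped. Drc1 rose by 1.16 ± 0.16 in the EGFP sort and by 1.42 ± 0.24 in the mCherry sort on the log2 scale (edgeR adjusted p = 0.00193 and 0.0349). Drc3 spanned 25.9 to 28.7 against 13.4 to 13.7 CPM in the EGFP libraries (log2 fold change 1.00 ± 0.14) and 15.8 to 27.4 against 5.13 to 12.9 CPM in the mCherry libraries (1.15 ± 0.37, adjusted p = 0.148). Drc7 spanned 17.9 to 19.3 against 7.55 to 8.37 CPM in the EGFP libraries (1.23 ± 0.16) and 11.0 to 18.3 against 1.32 to 4.61 CPM in the mCherry libraries (2.09 ± 0.47, adjusted p = 0.0677).

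Dynein heavy chains, the motors of the arms, rose in part. The 16 Dnah members include the antisense transcript Dnah2os, which codes for no heavy chain and passed no filter. Of the 16, 4 rose in the EGFP sort, with 14 passing the filter, and 1 rose in the mCherry sort. Dnah1 (chromosome 14, 31260375 to 31323896, minus strand), an inner-arm chain, stood at 12.8, 23.8 and 22.5 CPM in mCherry positive and 5.20, 5.34 and 4.90 CPM in mCherry negative libraries. Its EGFP levels were 11.3, 12.8 and 15.2 CPM against 8.90, 6.09 and 4.57 CPM. Positive libraries were again above negative ones, with mCherry positive replicate 1 the lowest of its group. The log2 fold changes of Dnah1 were 1.94 ± 0.32 and 0.98 ± 0.26 (edgeR adjusted p = 0.0349 and 0.0303).

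The outer-arm chains Dnah5 and Dnah9 rose in the EGFP sort and were not called in the mCherry sort, and the difference between the sorts was not called for either. Dnah5 stood at 9.61, 6.89 and 5.65 CPM in EGFP positive and 3.34, 1.98 and 2.47 CPM in EGFP negative libraries (log2 fold change 1.48 ± 0.29, edgeR adjusted p = 0.00939). In the mCherry positive libraries it stood at 9.23, 1.11 and 1.74 CPM, and in the negative ones at 2.05, 1.47 and 0 CPM. Replicate 1 alone carried the mCherry positive level, and the groups overlapped. Dnah9 spanned 11.1 to 16.3 against 4.87 to 6.25 CPM in the EGFP libraries (1.21 ± 0.21) and 2.80 to 10.3 against 1.04 to 5.36 CPM in the mCherry libraries (1.11 ± 0.64, edgeR adjusted p = 0.38). Dnah2, an inner-arm chain, did not pass the test in either sort, at 8.75 to 12.1 against 4.87 to 8.90 CPM and at 12.7 to 18.4 against 4.22 to 11.5 CPM. Dnah17, a heavy chain best known from sperm, was the 1 member below without overlap in the EGFP sort, at 0.248 to 0.478 against 0.481 to 1.79 CPM (-1.73 ± 0.59, adjusted p = 0.0759); it was called lower without EGFP negative replicate 3. Dnah7a, Dnah7b and Dnah7c are near-identical copies whose reads may be split, and none was called in either sort.

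Dynein arms are put together in the cytoplasm by assembly factors, and the 4 Dnaaf members did not move as a group. Dnaaf1 stood at 5.46, 6.62 and 4.70 CPM in EGFP positive and 2.27, 1.60 and 1.62 CPM in EGFP negative libraries. The mCherry positive libraries gave 1.8, 2.03 and 0.953 CPM and the negative ones 1.06, 1.66 and 3.95 CPM. The EGFP positive libraries stood above all 9 others, and the mCherry groups overlapped. Dnaaf1 rose by 1.58 ± 0.27 in the EGFP sort (edgeR adjusted p = 0.00502) against -0.46 ± 0.65 in the mCherry sort, and the difference between the sorts had an adjusted p of 0.158. Taf1c overlaps 20.7% of its exonic bases on the other strand, and whether the counting used strand is not given. Dnaaf3 rose in the EGFP sort, at 7.79 to 11.7 against 3.74 to 4.33 CPM (1.21 ± 0.22), and spanned 7.45 to 11.0 against 3.27 to 4.11 CPM in the mCherry sort (1.22 ± 0.35, adjusted p = 0.115). Dnaaf2 spanned 16.1 to 21.8 CPM in mCherry positive and 30.3 to 39.1 CPM in mCherry negative libraries (-0.77 ± 0.23, adjusted p = 0.124); 71.4% of its exonic bases are shared with an opposite-strand transcript.

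Radial spokes pass signals from the central pair to the dynein arms. Rsph1 (chromosome 17, 31255019 to 31277383, minus strand), a spoke-head protein, stood at 53.7, 53.6 and 46.6 CPM in EGFP positive and 27.6, 25.3 and 22.3 CPM in EGFP negative libraries. The mCherry sort gave 35.0, 22.8 and 14.5 CPM in the positive and 15.2, 11.7 and 9.30 CPM in the negative libraries. The EGFP groups were well apart, whereas mCherry positive replicate 3 fell below mCherry negative replicate 1. Rsph1 rose by 1.01 ± 0.14 in the EGFP sort (edgeR adjusted p = 0.00212), and the mCherry value was 1.00 ± 0.35 (adjusted p = 0.169). Rsph4a, also of the spoke head, rose in the EGFP sort, at 9.43 to 21.4 against 6.85 to 8.12 CPM (1.13 ± 0.29), and spanned 11.5 to 18.6 against 1.72 to 5.47 CPM in the mCherry sort (1.87 ± 0.45, adjusted p = 0.0782). Averaged over the 12 libraries, Rsph9 and Cfap36 had the highest levels per kilobase of exon, 41.1 and 40.8 CPM per kb. Rsph9 stood above Cfap36 in the EGFP sort (57.6 against 46.3 in the positive and 37.6 against 35.1 in the negative libraries, group means in CPM per kb) and below it in the mCherry sort (42.7 against 44.8 and 26.5 against 37.1). Rsph9 was not called in either sort, at 68.1 to 121 against 55.5 to 67.6 CPM and at 64.4 to 72.3 against 39.3 to 48.3 CPM, although neither pair of groups overlapped.

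The Cfap genes code for central-pair, spoke, doublet and other axoneme proteins, and 16 of the 31 rose in the EGFP sort. Cfap221, a central-pair protein, had the largest log2 fold change of the members called there, 2.00 ± 0.43 (edgeR adjusted p = 0.013), from 1.86, 2.35 and 3.72 CPM in positive against 0.437, 0.761 and 0.782 CPM in negative libraries. Cfap54, also of the central pair, stood at 21.3, 24.7 and 29.3 CPM against 13.2, 10.0 and 8.84 CPM (1.21 ± 0.20, adjusted p = 0.00451). In the mCherry sort Cfap54 stood at 27.7, 18.2 and 27.4 CPM against 10.7, 3.99 and 4.26 CPM, apart without overlap, at 1.96 ± 0.41 and an adjusted p of 0.057. Cfap221 there overlapped, since mCherry negative replicate 1 held 2.15 CPM and the other negative libraries 0 and 0.0454 CPM.

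Cfap45 and Cfap52, which line the inside of the doublets, spanned 16.0 to 18.9 against 5.63 to 8.86 CPM and 18.7 to 30.9 against 9.56 to 10.7 CPM in the EGFP sort, with log2 fold changes of 1.25 ± 0.20 and 1.33 ± 0.21. Their mCherry values were 1.37 ± 0.48 and 1.85 ± 0.58 (edgeR adjusted p = 0.178 and 0.139). Cfap61, a radial spoke protein, rose by 1.48 ± 0.27 in the EGFP sort, and Cfap53, known from left-right patterning, by 1.39 ± 0.35. Cfap65 (chromosome 1, 74902071 to 74935599, minus strand), best known from sperm tails, was the Cfap gene called in both sorts. It stood at 7.96, 5.35 and 11.2 CPM in mCherry positive and 1.99, 1.17 and 1.09 CPM in mCherry negative libraries. The EGFP libraries gave 8.13, 5.42 and 11.5 CPM against 4.69, 2.89 and 3.73 CPM. Positive libraries spread widely in both sorts yet stayed above the negative ones, at 2.53 ± 0.47 and 1.13 ± 0.31 (edgeR adjusted p = 0.0412 and 0.0364).

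Tektins run along the doublets, and 2 of the 5 rose in the EGFP sort. Tekt1 stood at 34.5, 29.5 and 26.7 CPM in EGFP positive and 18.5, 13.9 and 11.1 CPM in EGFP negative libraries (1.03 ± 0.21, edgeR adjusted p = 0.0102). Its mCherry levels were 35.6, 14.9 and 26.6 CPM against 9.47, 13.9 and 5.63 CPM, without overlap by a narrow margin (1.42 ± 0.40, adjusted p = 0.114). Tekt5, best known from sperm, spanned 15.6 to 22.5 against 7.04 to 11.9 CPM in the EGFP sort (0.86 ± 0.23). Tekt4 was not called, at 5.34 to 5.96 against 3.01 to 4.38 CPM in the EGFP sort. Of the Spef genes, Spef2 of the central pair rose in the EGFP sort, at 10.4 to 26.1 against 7.27 to 8.72 CPM (1.18 ± 0.30), and spanned 17.7 to 28 against 2.40 to 9.06 CPM in the mCherry sort (1.64 ± 0.47, adjusted p = 0.114). Spef1, a microtubule-bundling protein, was not called, at 11.1 to 16.3 against 9.74 to 10.8 CPM and at 8.37 to 9.19 against 6.58 to 7.35 CPM, apart without overlap in each.

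The 6 members used also outside motile cilia gave 0 calls in either sort by edgeR (2 in the EGFP and 1 in the mCherry sort at an unadjusted p under 0.05). Of all genes tested, 16.1% were called in the EGFP and 1.20% in the mCherry sort, and 30.5% and 18.6% had an unadjusted p under 0.05. At these shares a count of 0 among 6 genes says little about them. DESeq2 called Cfap36 higher in the EGFP sort and Dnaaf2 lower in the mCherry sort. The edgeR fits gave median log2 fold changes of 0.15 in the EGFP and -0.15 in the mCherry sort. Cfap20, which stabilises doublets and has roles in other cells, stood at 133, 105 and 98.7 CPM in EGFP positive and 105, 96.9 and 102 CPM in EGFP negative libraries. Its mCherry levels were 95.1, 107 and 109 CPM in the positive and 115, 137 and 123 CPM in the negative libraries. Its EGFP groups overlapped, and its mCherry positive libraries lay below the negative ones at -0.26 ± 0.16 (adjusted p = 0.418). The 62 members tied to motile cilia had medians of 0.90 in the EGFP and 1.18 in the mCherry sort, with 33 and 4 called. A further 4 members are known mainly from sperm (Dnah8, Dnah17, Rsph6a and Tekt5), of which Tekt5 rose in the EGFP sort; Rsph6a had 2 reads over all 12 libraries.

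The 4 members called in the mCherry sort (Cfap65, Dnah1, Catip and Drc1) were also called in the EGFP sort. Of the 34 that rose in the EGFP sort, 33 had a log2 fold change above 0 in the mCherry sort, with a median of 1.31 and a range of -0.46 (Dnaaf1) to 2.53 (Cfap65). In the mCherry sort 20 of the 34 stood higher without overlap, as did 11.8% of all genes tested. Such figures were not made for the other genes that rose in the EGFP sort, so they are not shown to be particular to the members. The mCherry libraries are separate from those of the EGFP sort. In the test of the difference between the 2 effects, 0 of the 69 members that passed the filter were called, against 1.44% of all genes tested; 0.886% and 0.559% of them were called with the larger effect in the mCherry or the EGFP sort. At an unadjusted p under 0.05 there were 5 members, against 15.1% of all genes tested, and DESeq2 called 0. A p that misses the threshold does not show equal effects: the difference was 0.23 ± 0.27 for Drc1 but 0.23 ± 1.23 for Dnah5 on the log2 scale.

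**Figure D4:**
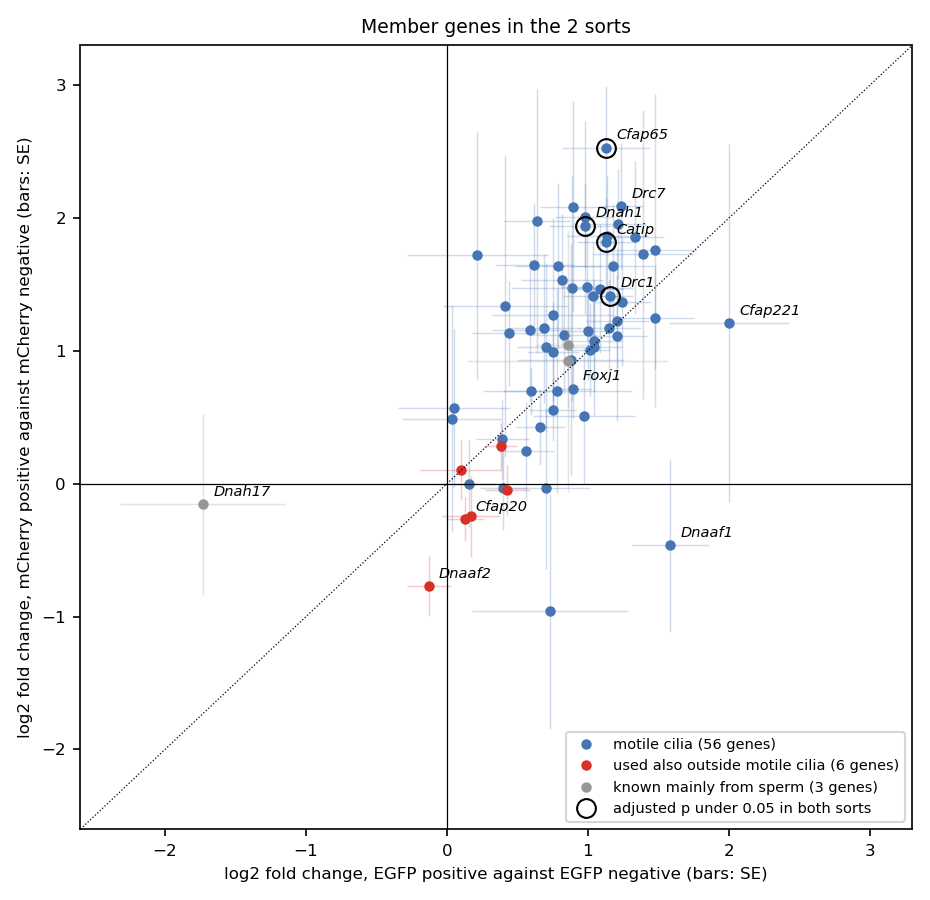
Log2 fold change of each of the 65 members tested in both sorts, EGFP positive against negative (horizontal axis) and mCherry positive against negative (vertical axis). Bars are SE, colours are the 3 subsets, rings mark the 4 members called in both sorts and the dotted line marks equal effects. Of the 65, 55 lie above 0 in both sorts, and the 6 members used also outside motile cilia range from -0.77 to 0.28 in the mCherry sort.

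Between the sorts, mCherry positive and EGFP positive cells differed in 5 members, 1 higher and 4 lower in mCherry positive, where 12.9% of all genes tested were called, 9.12% higher and 3.77% lower. Virus, reporter and RNA input differ between the sorts for all libraries, so these and the sorted cells cannot be told apart. Tekt3 (chromosome 11, 63061654 to 63094964, plus strand) had 0 reads in the 3 mCherry positive libraries and 67 over the EGFP positive ones, at 1.55, 0.757 and 0.807 CPM. With 3 reads as the floor of the mCherry positive group and the 67 reads taken as exact, it was 29.7-fold lower in mCherry positive cells, which is not a lower limit (edgeR adjusted p = 0.00692). Tekt3 passed the filter on low counts only through the EGFP positive libraries, where it is high, so this p is not independent support. Rsph1, Foxj1 and Dnaaf1 were lower by log2 fold changes of -1.05 ± 0.29, -0.76 ± 0.18 and -1.77 ± 0.41 (adjusted p = 0.0393, 0.0215 and 0.0213). The count was 13 without mCherry positive replicate 1, and 3, 2, 3 and 1 without mCherry positive replicate 2, mCherry positive replicate 3, EGFP positive replicate 1 and EGFP positive replicate 2.

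Dnaaf5 (chromosome 5, 139150223 to 139186510, plus strand), a dynein-arm assembly factor, followed the sort and not the reporter. It stood at 29.4, 24.4 and 30.9 CPM in mCherry positive and 27.1, 30.6 and 21.6 CPM in mCherry negative libraries. The EGFP positive libraries gave 13.5, 8.73 and 8.0 CPM and the negative ones 6.84, 12.9 and 7.94 CPM. All 6 mCherry-sort libraries were above all 6 EGFP-sort libraries. Between the positive groups Dnaaf5 was higher in the mCherry sort by 1.52 ± 0.27 on the log2 scale, and between the negative groups by 1.51 ± 0.27 (edgeR adjusted p = 0.00704 and 0.0116). An opposite-strand transcript, Gm15672, overlaps 10.6% of its exonic bases.

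Between the negative groups, 2 members were called, Dnaaf5 higher and Rsph1 lower in mCherry negative cells (Rsph1 -1.06 ± 0.22, edgeR adjusted p = 0.0253), where 4.94% of all genes tested were called, 3.44% higher and 1.50% lower. The mCherry negative libraries stood below the EGFP negative ones without overlap for 23 of the 73 members and above for 2, where 12.9% and 13.4% of all genes tested did so. The count of calls went from 0 to 5 as single libraries were left out: 5 and 4 without mCherry negative replicates 1 and 3, 1 without mCherry negative replicate 2 or EGFP negative replicate 2, and 0 without EGFP negative replicate 1 or 3.

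Other axoneme genes, outside the naming rule, followed the members. Of 47 such genes 31 rose in the EGFP sort, where 8.99% of all genes tested were called higher. In the mCherry sort 2 rose, where 0.541% of all genes tested did so. The median log2 fold changes were 0.99 in the EGFP and 1.20 in the mCherry sort. The EGFP count became 18, 20 and 17 without EGFP negative replicates 2 and 3 and EGFP positive replicate 2, and the mCherry count 1 without mCherry positive replicate 1 and 0 without any other library of that sort. Meig1 stood at 52.0, 46.6 and 35.6 CPM in EGFP positive and 22.3, 17.3 and 17.1 CPM in EGFP negative libraries, and Tppp3, a tubulin-binding protein of axonemes, was the other gene called in both sorts. Of the 44 genes of intraflagellar transport and the primary cilium, 0 were called in the mCherry sort by edgeR, where 1.20% of all genes tested were called. There 9 of the 44 had an unadjusted p under 0.05, which is near the share of 18.6% of all genes tested. In the EGFP sort 12 rose, and the medians were 0.35 in the EGFP and 0.25 in the mCherry sort. That EGFP count was 2 or 3 without EGFP positive replicate 2 or any 1 of the EGFP negative libraries and 23 without EGFP positive replicate 1. Among 15 regulators of ciliation, Rfx2, an RFX factor of motile ciliogenesis, rose in the EGFP sort, at 45.1, 43.2 and 44.3 against 22.2, 17.3 and 21.4 CPM (1.10 ± 0.15, adjusted p = 0.00156), as did Ulk4, and 1 regulator was called without EGFP negative replicate 1 or EGFP positive replicate 2; Myb stands in both this list and that of ependymal markers. In the mCherry sort 0 regulators were called, and 5 of the 12 tested had an unadjusted p under 0.05, as did 18.6% of all genes tested.

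Of the markers of other cells, the ependymal sums stood higher without overlap in the positive libraries of both sorts, the choroid plexus sums in the EGFP sort alone and the tanycyte sums in neither. A sum is weighted toward its genes of highest level. Whether the listed genes are particular to 1 cell type in these cultures was not tested. Gene by gene, 12 of 14 tanycyte markers had a log2 fold change above 0 in the mCherry sort (median 0.94). There 8 of them stood higher without overlap, as did 11.8% of all genes tested. All 7 choroid plexus markers tested in the mCherry sort were above 0 (median 1.60), with 1 of the 12 higher without overlap. In the EGFP sort 9 of 13 tanycyte and 6 of 7 choroid plexus markers tested were above 0 (medians 0.22 and 0.72). Of 18 ependymal markers, 10 rose and 1 (S100b) fell in the EGFP sort, with Clu, Vim, Fam216b and Gja1 at the smallest edgeR adjusted p. Of all genes tested, 8.99% were called higher and 7.07% lower in that sort. In the mCherry sort Fam183b rose and Cd24a fell, where 0.541% of all genes tested were called higher and 0.656% lower. Both mCherry calls were lost whichever library was left out, and the 11 EGFP calls became 6 without any 1 of the EGFP negative libraries and 7 without EGFP positive replicate 2. The summed ependymal markers stood at 5575 to 6818 CPM in EGFP positive, 3349 to 3547 in EGFP negative, 3187 to 5229 in mCherry positive and 1665 to 2483 in mCherry negative libraries; none was at 0 in all libraries of a group. Of 12 choroid plexus markers, 4 rose in the EGFP sort (Ttr, Otx2, Clic6 and Folr1) and 0 were called in the mCherry sort by edgeR (1 at an unadjusted p under 0.05), with sums of 203 to 246, 66.4 to 72.9, 34.8 to 279 and 23.6 to 90.0 CPM in the same order, and 1 of the 12 had no reads in the mCherry negative libraries. Ttr alone stood at 0.492, 225 and 49.8 CPM in mCherry positive replicates 1 to 3. The summed motile cilia members stood at 857, 588 and 628 CPM in the same libraries, and how the 2 relate was not tested. Of 14 tanycyte markers, 4 rose in the EGFP sort and 2 in the mCherry sort (Crym and Frzb), and their sums overlapped between positive and negative libraries in both sorts. The tanycyte calls became 2 in the EGFP sort without EGFP negative replicate 1 or 2 or EGFP positive replicate 2, and 0 in the mCherry sort without mCherry negative replicate 1 or 2 or mCherry positive replicate 3; the choroid plexus calls in the EGFP sort became 2 without EGFP negative replicate 2. Mitochondrial reads were 0.766% to 0.872% in EGFP positive against 1.16% to 1.36% in EGFP negative libraries, and 1.06% to 1.54% in mCherry positive against 0.805% to 0.953% in mCherry negative libraries, so they moved in opposite directions in the 2 sorts. The part of these cell types and of the mitochondrial share in the members' differences was not tested.

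**Figure D5:**
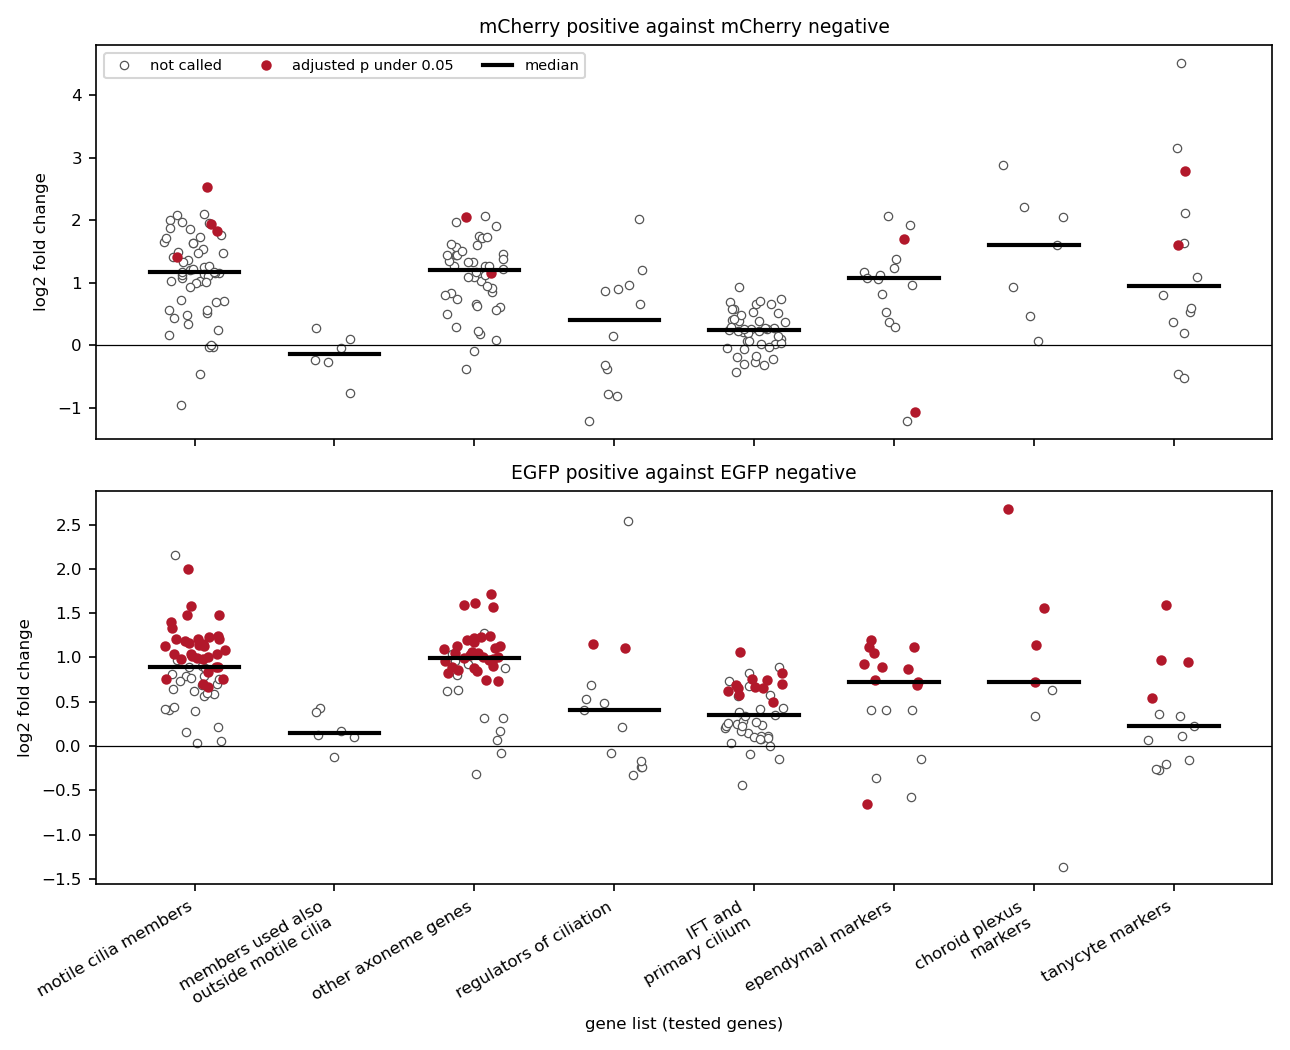
Log2 fold change (vertical axis) of every tested gene in 8 gene groups (horizontal axis), for the mCherry sort (top) and the EGFP sort (bottom); filled points have an adjusted p under 0.05 and bars are medians. The motile cilia members and the other axoneme genes have medians of 1.18 and 1.20 in the mCherry sort and 0.90 and 0.99 in the EGFP sort, above those of the primary cilium genes at 0.25 and 0.35.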

How the data were processed

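The authors deposited 1 table of raw gene counts per library. Per the submitters' processing notes the tools were cutadapt 1.8, STAR 2.5.2b and HTSeq 0.6.1 with the genome GRCm38; whether strand was used, the annotation release and all settings are not given in the sources used here. In each table, the 5 entries that name no gene held 31.4% to 38.2% of reads and were left out. Of 48709 gene identifiers 48349 matched GENCODE M21, which gave symbols and positions; the others held at most 0.0279% of gene reads.

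Counts were tested with edgeR 4.0.16 (R 4.3.3; filterByExpr, TMM, quasi-likelihood fit on group), on the 6 libraries of each comparison and on all 12 for the difference between sorts, with Benjamini-Hochberg adjustment over all genes tested and calls at an adjusted p under 0.05. SE is the log2 fold change divided by the root of F. The code was tested on simulated data. Alternatives were DESeq2 1.42.0, its size factors, other filters, a replicate block, a fit of all 12 libraries and leaving out each library. Named genes are the 4 single genes, the 3 members of highest level per family, every called member (for the EGFP sort the 12 of largest change with at least 1 CPM) and up to 4 called genes per list; Cfap20, Dnaaf2, Dnah17, the Dnah7 copies, Rsph6a and the genes with printed sequences also appear for the pattern each illustrates. Members, lists and tests were chosen with earlier results of these data known. Floors of 3 reads cover counting error only, and only in the group with 0 reads.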

Additional observations from a re-analysis of the deposited data

Results flagged for a closer look

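The tanycyte marker Frzb, a secreted Wnt inhibitor, rose more in the mCherry than in the EGFP sort: the difference between the log2 fold changes was 1.79 ± 0.36 (SE; edgeR adjusted p = 0.0304, 3 libraries per group), from 21.4, 19.2 and 30.9 CPM against 3.76, 3.16 and 3.49 CPM in the mCherry sort and from 10.6, 9.01 and 11.8 CPM against 5.05, 4.07 and 6.80 CPM in the EGFP sort. For the intraflagellar transport gene Ift46, every mCherry positive library (47.9 to 56.5 CPM) lay below every mCherry negative one (62.9 to 77.6 CPM) while every EGFP positive library (65.0 to 73.7 CPM) lay above every EGFP negative one (53.4 to 60.9 CPM); the difference of -0.685 on the log2 scale had an edgeR adjusted p of 0.116 and is not called.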

How the results depend on the processing

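No named member called in a comparison changed direction there under the alternatives run, while members that were not called could. The members' median difference between the sorts (mCherry effect minus EGFP effect, log2) was 0.23 with all libraries, -0.04 without mCherry positive replicate 1 and -0.11 without mCherry negative replicate 3, and the members with a log2 fold change above 0 in the EGFP sort went from 66 to 62 of 68 without EGFP positive replicate 1. In the mCherry sort, where 4 members were called, the count was 10 without a filter on low counts, 24 with DESeq2, 8 with the replicate block, 26 in the fit of all 12 libraries and 0 to 2 as each library was left out. Over all genes the 208 calls of that sort became 778, 1502, 343, 1712 and 0 to 212 in the same order. In the EGFP sort the 34 became 8 in the fit of all 12 libraries and 20 to 39 as libraries were left out. Between the positive groups the 5 became 8 with DESeq2 and 1 to 13 as libraries were left out. Between the negative groups the 2 became 4 without the filter, 9 with DESeq2 and 0 to 5 as libraries were left out. The difference between the sorts gave 0 members under every alternative run. Catip, Cfap61, Dnaaf3, Drc1, Foxj1 and Rsph1 were called in the EGFP sort under all 12 alternatives. Same-numbered libraries correlated at -0.028 to 0.166 in the mCherry and 0.0056 to 0.225 in the EGFP sort. There 3 and 4 of 6 libraries correlated best with their own number. Across the sorts this held for 1 of 6 in the positive and 0 of 6 in the negative groups. Whether a number pairs libraries is not given, so the main fits do not pair them, but pairing within a sort is not excluded. With the replicate block, 37 members were called in the EGFP sort, 4 between the positive groups and 2 between the negative groups. Over all genes the block called 3409 in the EGFP sort, against 2622 in the main fit, and 343 in the mCherry sort, against 208. Members such as Mcidas and Tekt3 rest on few reads, and 3 libraries per group limit what any of these counts can show.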
